A study of Sus scrofa with 63 samples.

Results

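Enteric neurons and glia of the jejunum were described through 8 marker genes, namely RET, GFRA1, ELAVL4, UCHL1, VIP, NOS1, S100B and SOX10. The members were all array probes whose gene name equalled one of these symbols in any letter case, which gave 10 of the 60305 probes and 6 of the 8 genes, beside 9007 named and tested genes in all. The names VIP and NOS1, the transmitter peptide and the nitric oxide synthase of inhibitory motor neurons, matched no probe and were not analysed here. RET, GFRA1, ELAVL4 and UCHL1 are taken below as the 4 neuronal members, and S100B and SOX10 as the 2 glial members.

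The jejunum came from 63 male fetuses delivered by caesarean section, with 1 fetus per array, from Large White (LW) and Meishan (MS) sows inseminated with mixed semen of both breeds. At day 90 of gestation there were 9 LW, 8 MSLW, 9 LWMS and 6 MS fetuses, and at day 110 there were 9 LW, 6 MSLW, 9 LWMS and 7 MS fetuses. LW and MS are purebred, MSLW fetuses had an MS sire and an LW sow, and LWMS fetuses had an LW sire and an MS sow. The fetuses of a litter share a sow, which the labels do not give, so litter mates count here as independent and p-values may be too small.

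The enteric nervous system arises from neural crest cells that migrate along the gut and settle as ganglia between and beneath the muscle layers. GDNF, secreted by the gut mesenchyme, binds the co-receptor GFRA1 and signals through the receptor tyrosine kinase RET, on which survival, migration and proliferation of the precursors depend. Precursors that keep SOX10 become glia, whereas those that become neurons switch on the neuronal RNA-binding protein ELAVL4 (HuD) and the deubiquitinase UCHL1 (PGP9.5), and mature glia hold the calcium-binding protein S100B. In these samples of the whole jejunum, fewer cells of a type and less RNA per cell cannot be told apart.

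The 60-base probes decide what each value stands for, so parts of those on which the results turn are shown 5′ to 3′ as the array files give them. RET, UCHL1, S100B and SOX10 had 2 probes each, and GFRA1 and ELAVL4 had 1 each. The RET probes overlap by 48 bases and therefore read nearly the same target. Capitals mark 30 of the shared bases, which are bases 31 to 60 of the brighter probe and 19 to 48 of the other.
RET, brighter probe: CAAACAAGGCCATACCATTTAAACATGAAG
RET, other probe: CAAACAAGGCCATACCATTTAAACATGAAG
The brighter probes of SOX10 and of S100B carry the letters AATAAA, the polyadenylation signal that lies close to the end of many messages, marked in capitals within bases 31 to 60. Read on the given strand, AATAAA occurs in 10.3% of the 60305 probes and in 2 of the 10 probes of the members.
SOX10, brighter probe: cagtggtatttgAATAAAgtatgtagctct
S100B, brighter probe: tcgcttgtatttgcattaAATAAAaagcat
The second SOX10 probe and the ELAVL4 probe are shown whole, since the first was dim and the second stands alone for its gene. Bases 31 to 60 of the GFRA1 probe and of the brighter UCHL1 probe, and the whole second UCHL1 probe, are shown because these 2 genes gave the clearest changes.
SOX10, dim probe: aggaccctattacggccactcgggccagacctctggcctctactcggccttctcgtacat
ELAVL4: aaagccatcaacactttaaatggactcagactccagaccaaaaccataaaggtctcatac
GFRA1: gttcgaagtacatttatatccaaatgttaa
UCHL1, brighter probe: tgtctgtgactttaaggcctttggatgtgg
UCHL1, second probe: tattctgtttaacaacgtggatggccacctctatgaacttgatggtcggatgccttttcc

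Levels are given as the log2 of the background-corrected signal minus the 75th percentile of the array, so that a level of 0 is the signal at that percentile. A probe entered the tests if, in 1 or more groups, 75% or more of the arrays showed it well above background, as 9 of the 10 member probes and 40515 of all probes did. The exception was the second S100B probe, which was well above background on 4 of 63 arrays and is not used below. The brighter probes of RET, GFRA1, UCHL1, S100B and SOX10 were well above background on all 63 arrays, and the ELAVL4 probe on 61. The dim SOX10 probe reached that on only 30 arrays. The brighter tested probe represents each gene unless the other is named, and levels of different probes are not compared.

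Of the 4 neuronal members 3 fell from day 90 to day 110, and no change of S100B or SOX10 was detected. The latter are called glial by their names alone, since across fetuses S100B had an r of 0.37 with the mean of other glial genes and 0.35 with that of neuronal genes, and SOX10 an r of -0.13 with the glial mean, which itself had 0.78 to 0.86 with the neuronal members. Over the 4 genotypes, GFRA1 was 1.70-fold, UCHL1 1.55-fold and ELAVL4 1.55-fold lower at day 110 than at day 90, while S100B and SOX10 differed by -0.06 and -0.01 log2 units. By contrast, S100B differed by breed: it was higher in fetuses with an MS sow and in fetuses with an MS sire. In the F test over the 8 groups (limma, adjusted p under 0.01), 3 of the 6 genes were called, UCHL1 (adjusted p = 4.52e-06), GFRA1 (adjusted p = 1.92e-05) and S100B (adjusted p = 4.67e-04). The background of that test was 28.8% of all probes tested. ELAVL4 missed it with an adjusted p of 0.0337.

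**Figure D1:**
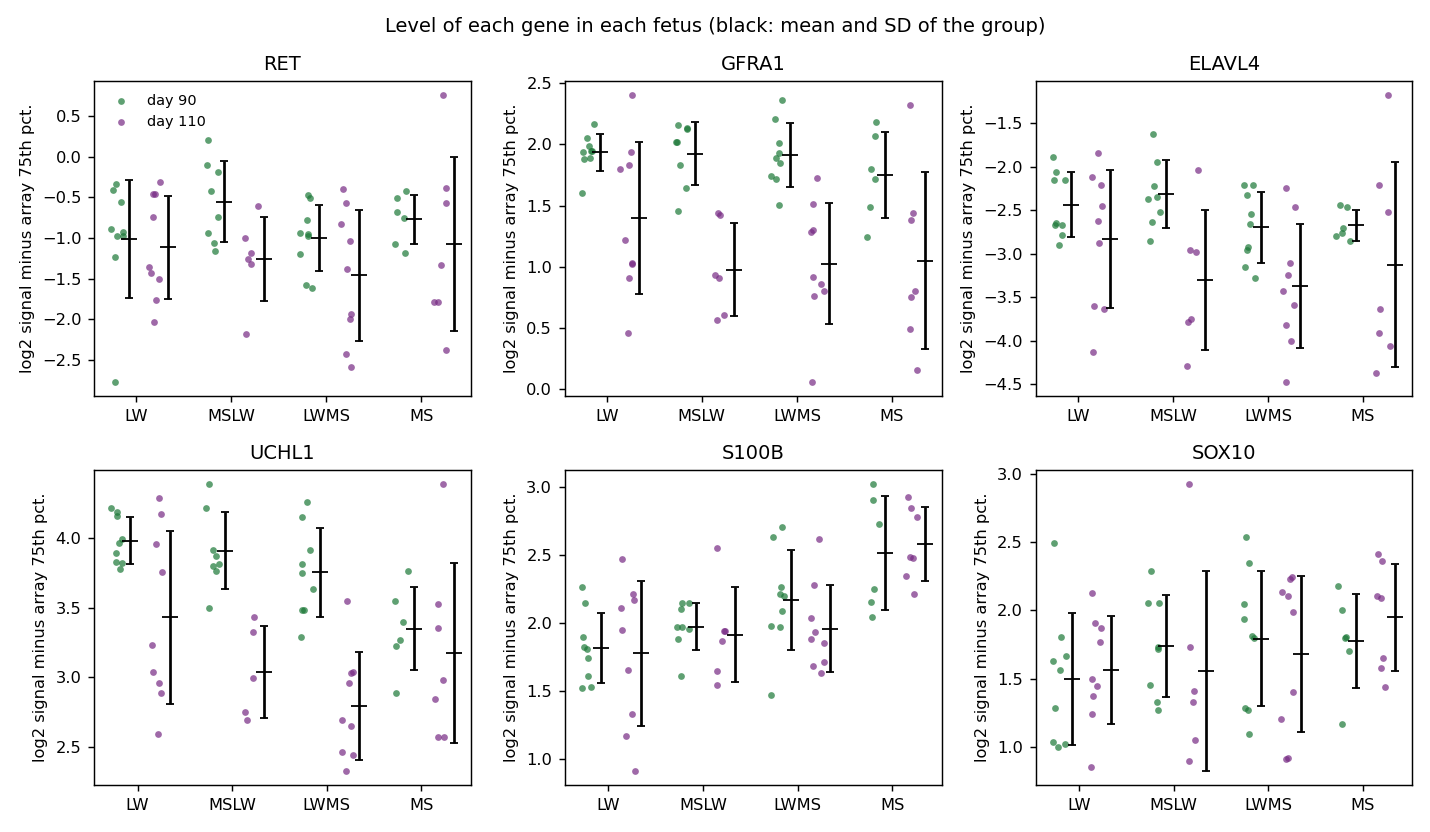
Level of the brighter probe of each gene (vertical axis, log2 signal minus the 75th percentile of the array) in every fetus, by genotype (horizontal axis) and day (colour), with the mean and SD of each group in black. The day 110 points of GFRA1, UCHL1 and ELAVL4 lie lower and spread wider than those of day 90, and the means of S100B are higher in MS than in LW at both days, with overlapping points.

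The receptor pair was examined first. GFRA1 at day 90 ran from 1.60 to 2.16 (median 1.95) in LW, from 1.46 to 2.15 (median 2.02) in MSLW, from 1.51 to 2.36 (median 1.89) in LWMS and from 1.25 to 2.19 (median 1.76) in MS. At day 110 it ran from 0.46 to 2.40 (median 1.22) in LW, from 0.57 to 1.44 (median 0.92) in MSLW, from 0.06 to 1.73 (median 0.92) in LWMS and from 0.16 to 2.32 (median 0.80) in MS. Day 110 fetuses were thus mostly the low ones, and in MSLW the ages did not overlap. The share of all tested probes without overlap was not counted. Overlap, here and for the genes below, therefore only describes the values. In LWMS 7 of 9, in LW 5 of 9 and in MS 4 of 7 day 110 fetuses lay below every day 90 fetus of their genotype. The change with age over the 4 genotypes was -0.77 ± 0.11 (SE, log2 difference) with an adjusted p of 1.10e-07 in limma.

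RET, the signalling receptor, was not called for age, and its change was not tested against that of its co-receptor. Its level at day 90 ran from -2.77 to -0.34 (median -0.92) in LW, from -1.16 to 0.21 (median -0.59) in MSLW, from -1.61 to -0.47 (median -0.95) in LWMS and from -1.18 to -0.42 (median -0.72) in MS. At day 110 the ranges were -2.03 to -0.30 (median -1.36), -2.18 to -0.61 (median -1.22), -2.58 to -0.39 (median -1.38) and -2.38 to 0.76 (median -1.34), in the same order. All 4 genotypes overlapped between the ages. The difference was -0.39 ± 0.17 (SE, log2), with a limma adjusted p of 0.0548 for the brighter probe, and -0.30 ± 0.15 with an adjusted p of 0.115 for the other. Neither met the threshold for age, which asks for an adjusted p no higher than 0.01 and a difference of 0.5 log2 units or more, and the 95% interval of the first (-0.73 to -0.06) does not place RET at no change.

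Among the markers of differentiated neurons, UCHL1 at day 90 ran from 3.77 to 4.22 (median 3.96) in LW, from 3.50 to 4.38 (median 3.84) in MSLW, from 3.29 to 4.26 (median 3.75) in LWMS and from 2.89 to 3.76 (median 3.33) in MS. At day 110 it ran from 2.60 to 4.29 (median 3.23), from 2.70 to 3.43 (median 3.0), from 2.33 to 3.55 (median 2.69) and from 2.57 to 4.39 (median 2.98), in the same order. In MSLW every day 110 fetus was below every day 90 fetus, in LWMS 8 of 9 were, in LW 6 of 9 and in MS only 3 of 7. One MSLW fetus of day 110 had an outlier spot for the brighter UCHL1 probe and was left out of its fit, which leaves 5 values in that group. The change over the genotypes was -0.64 ± 0.11 (SE, log2; limma adjusted p = 2.27e-06), and the second probe gave -0.73 ± 0.10 (adjusted p = 6.12e-08).

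ELAVL4 was the third neuronal member to fall. It ran from -3.28 to -1.62 (median -2.59) over the 32 fetuses of day 90 and from -4.47 to -1.18 (median -3.25) over the 31 of day 110. In MSLW 5 of 6, in LWMS 5 of 9, in MS 4 of 7 and in LW 3 of 9 day 110 fetuses were below all day 90 fetuses of their genotype. The difference of -0.63 ± 0.17 (SE, log2) had an adjusted p of 0.00183 in limma. With the authors' table it was -0.41 and with normexp background correction and quantile normalization together (below called normexp) -0.31, both below the 0.5 log2 units required.

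The age calls of the members thus numbered 3 of 6 genes (4 of 9 probes), all lower at day 110, where 7.62% of all tested probes were called lower and 13.7% in either direction. The median difference of all tested probes was -0.02. Arrays lay on 8 slides that each held both ages. Within slides, GFRA1 was lower at day 110 on 8 of 8 (-0.98 to -0.52), UCHL1 on 8 of 8 (-0.96 to -0.24), ELAVL4 on 7 of 8 (-1.43 to 0.21) and RET on 7 of 8 (-0.90 to 0.32). With the slide as a block, GFRA1, UCHL1 and ELAVL4 kept their calls.

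By genotype, the calls lay in the crossbred fetuses. In LWMS, GFRA1 fell by 0.89 ± 0.21 (SE, log2; limma adjusted p = 0.00117) and UCHL1 by 0.96 ± 0.19 (adjusted p = 1.96e-04), which makes 2 of 6 genes where 9.88% of probes were called. The call of GFRA1 in LWMS was lost with the median of the array as the scale (-0.75, adjusted p = 0.0248). In MSLW, GFRA1 fell by 0.94 ± 0.24 (adjusted p = 0.00454) and UCHL1 by 0.87 ± 0.23 (adjusted p = 0.00888), against 5.41% of probes called. ELAVL4 differed by -0.98 ± 0.35 in MSLW with an adjusted p of 0.0561. Both MSLW calls were close to the threshold of 0.01, and leaving out MSLW fetus 476, 560, 688, 851 or 899 took GFRA1 over it. For UCHL1, leaving out any MSLW fetus but 498 and 578 did so, which makes 12 fetuses. Fetus 688, 1 of these, had no value for the brighter UCHL1 probe. Without it the difference stayed at -0.87 and only the limma adjusted p moved, to 0.0111. Without single fetuses the adjusted p ran up to 0.0202 for GFRA1 and 0.0408 for UCHL1. The median of the array also ended both MSLW calls (-1.01 for GFRA1, adjusted p = 0.0131, and -0.98 for UCHL1, adjusted p = 0.0185), and that of UCHL1 was lost with normexp, with quantile scaling and without a filter on dim probes as well (-0.93, -0.92 and -0.87).

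In the purebred fetuses no member was called, where the background was 4.77% of probes in LW and 3.17% in MS. At an unadjusted p under 0.05 in limma, 2 of the 6 genes passed in LW and 1 in MS, where 23.9% and 20.5% of all probes did. The differences were nevertheless negative for all 4 neuronal members in both breeds, at -0.53 ± 0.21 for GFRA1, -0.55 ± 0.19 for UCHL1, -0.39 ± 0.31 for ELAVL4 and -0.11 ± 0.31 for RET in LW. In MS they were -0.70 ± 0.24, -0.17 ± 0.23, -0.46 ± 0.36 and -0.30 ± 0.36, in that order. The RET difference in LW includes fetus 484 of day 90, flagged below at -2.77, which makes the fall smaller, and its value without this fetus is not given here. The change with age was also compared between breeds directly. For MS against LW by age no member was called, nor for the breed of the sow or of the sire by age, and the backgrounds were 0.0173%, 0.388% and 0%. At an unadjusted p under 0.05 in limma, 2695, 4419 and 708 probes passed, and none of the 6 genes did. A difference in age response by these 3 terms was therefore not detected. Crossbred against purebred fetuses by age was not tested, and the calls in the crossbreds alone do not show a difference.

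**Figure D2:**
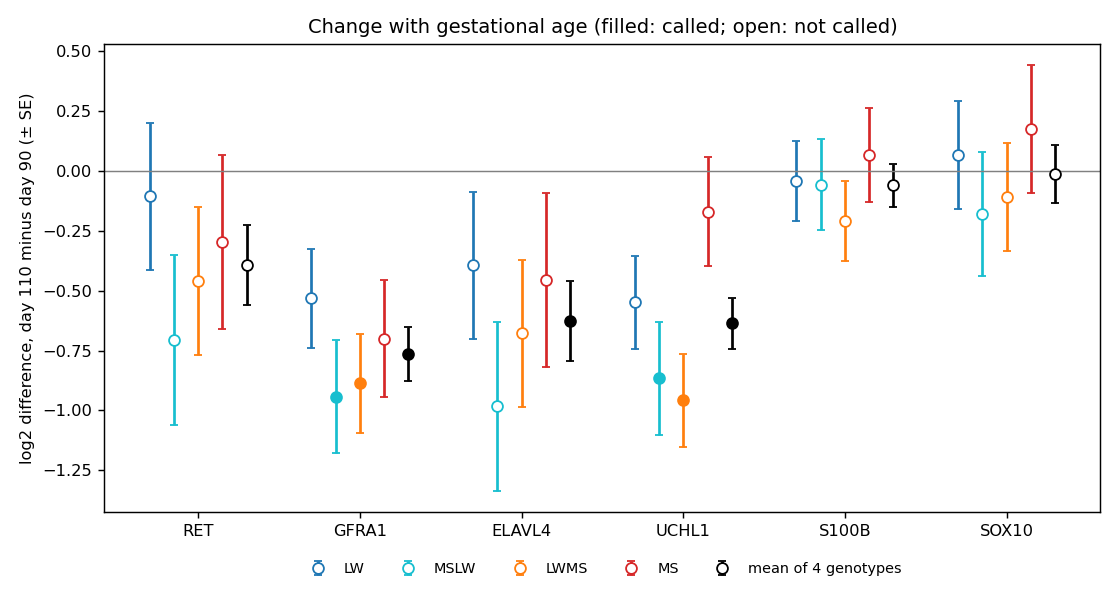
Change with age (vertical axis, log2 difference of day 110 minus day 90 with its SE) for each gene (horizontal axis) in each genotype and over the 4 genotypes. Filled points passed the threshold for age: GFRA1 and UCHL1 in LWMS, in MSLW and over the genotypes, and ELAVL4 over the genotypes only.

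The spread between fetuses of GFRA1, ELAVL4 and UCHL1 was wider at day 110 in all 4 genotypes. The SD of GFRA1 was 0.15 to 0.35 in the 4 groups of day 90 and 0.38 to 0.72 in those of day 110. For ELAVL4 it was 0.18 to 0.41 at day 90 and 0.71 to 1.18 at day 110. For UCHL1 it went from 0.17 to 0.62 in LW, from 0.28 to 0.33 in MSLW, from 0.32 to 0.38 in LWMS and from 0.30 to 0.64 in MS. It narrowed for RET in LW (0.72 to 0.63), for S100B in MS (0.42 to 0.27) and LWMS (0.37 to 0.32) and for SOX10 in LW (0.48 to 0.40). These SDs were not tested against each other. In MS at day 110 the same animal, fetus 632, had the highest level of all 4 neuronal members and of S100B, with RET at 0.76, GFRA1 at 2.32, ELAVL4 at -1.18 and UCHL1 at 4.39. Without it the change with age in MS was -0.91 ± 0.23 for GFRA1 (limma adjusted p = 0.00718, called) and -0.37 ± 0.22 for UCHL1 (adjusted p = 0.334). For ELAVL4 it was then -0.78 ± 0.34 (adjusted p = 0.166) and for RET -0.60 ± 0.35 (adjusted p = 0.332), beside -0.46 and -0.30 with this fetus.

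The glial members showed no change with age that the test detected. S100B ran from 1.47 to 3.02 (median 2.07) at day 90 and from 0.92 to 2.93 (median 1.95) at day 110, with a difference over the genotypes of -0.06 ± 0.09 (SE, log2; limma adjusted p = 0.631) and a 95% interval of -0.24 to 0.12. SOX10 ran from 1.0 to 2.54 (median 1.72) and from 0.85 to 2.93 (median 1.65), with -0.01 ± 0.12 (adjusted p = 0.946) and an interval of -0.26 to 0.23. Neither interval reaches the estimates for GFRA1, UCHL1 and ELAVL4.

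To ask whether neuronal and glial members changed unequally, the difference between a neuronal and a glial level was taken within each array and its change with age was tested by permuting days within genotypes (100000 resamples, two-sided, adjusted over 8 pairs). GFRA1 relative to S100B changed by -0.70 (adjusted p = 4e-05) and relative to SOX10 by -0.75 (adjusted p = 3.73e-04), in the same direction in 4 of 4 genotypes. UCHL1 changed by -0.59 relative to S100B (adjusted p = 4e-05) and by -0.63 relative to SOX10 (adjusted p = 6.80e-04). For ELAVL4 the changes were -0.57 (adjusted p = 0.00331) and -0.61 (adjusted p = 0.0210), although the second did not hold with the authors' table (-0.37, adjusted p = 0.0726), and neither held with normexp (-0.24 and -0.27, adjusted p = 0.0552 and 0.145). For RET they were -0.33 (adjusted p = 0.0829) and -0.38 (adjusted p = 0.113). These comparisons were added after the values were seen. The changes of GFRA1 and UCHL1 relative to both glial probes passed under the 5 alternatives run for them. No correlation of the brighter SOX10 probe with the mean of the glial genes was detected, as given below, and its second probe was too dim for such a check.

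Breed differences were seen in S100B. In MS it ran from 2.04 to 3.02 (median 2.49) at day 90 and from 2.21 to 2.93 (median 2.48) at day 110, and in LW from 1.52 to 2.27 (median 1.81) and from 0.92 to 2.47 (median 1.95). LWMS had 1.47 to 2.70 (median 2.20) at day 90 and 1.63 to 2.62 (median 1.88) at day 110, and MSLW 1.61 to 2.15 (median 1.97) and 1.55 to 2.55 (median 1.90). The MS groups had the highest means and the LW groups the lowest, with the crossbreds between them. Neighbours in this order did not differ by more than the larger of their SDs, and the largest step was from MS to LWMS at day 90, at 0.83 of that SD.

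Fetuses of MS sows had 1.35-fold higher S100B than fetuses of LW sows, a log2 difference of 0.44 ± 0.09 (SE; limma adjusted p = 3.78e-04). It was 0.45 ± 0.13 at day 90 (adjusted p = 0.0220) and 0.42 ± 0.13 at day 110 (adjusted p = 0.0249). The first call was lost without MS fetus 524 or 532 and the second without MSLW fetus 851. The arrays of fetuses 532 and 851 had 1417 and 3971 outlier spots, more than any other array. The part of these spots in the calls was not tested. Fetuses of MS sires had 1.24-fold higher S100B, at 0.32 ± 0.09 (adjusted p = 0.0199). Between the purebreds, S100B was 0.81 ± 0.18 higher in MS at day 110 (adjusted p = 0.00120, called) and 0.70 ± 0.19 higher at day 90 (adjusted p = 0.0110, just past the threshold of 0.01). On slides that held both, it was higher with an MS sow on 8 of 8 slides (0.06 to 0.78) and in MS against LW on 7 of 7 (0.20 to 1.34). The paternal difference was lost with the median of the array as the scale (0.25, adjusted p = 0.181). The calls by day also depend on the scale: that at day 90 was lost with normexp, quantile and median scaling, and that at day 110 with the authors' table, normexp and quantile scaling. S100B rests on 1 probe, since the other was dim. Fat cells also make S100B, and of 3 tested adipocyte genes 1 was called higher with an MS sow, PLIN1 (adjusted p = 0.0411, well above background on 19 of 63 arrays), and 0 for the sire in limma, with 1 at an unadjusted p under 0.05. The list medians were 0.29 for the sow and 0.25 for the sire. Beside these counts, 15.9% of all probes were called for the sow and 6.97% for the sire. The adipocyte sum, in units of the 75th percentile of the array, was 0.273 to 1.87 (median 0.589) with LW sows and 0.459 to 3.31 (median 0.689) with MS sows, and its median was 0.669 with LW sires and 0.595 with MS sires. Of 8 enterocyte genes 1 was called higher with an MS sow, KRT8 (0.21 ± 0.07, limma adjusted p = 0.0378), no more than the 15.9% of all probes. The enterocyte list median was 0.25, and the sum of these genes had a median of 297 with LW sows and 388 with MS sows. The part of these genes in the S100B differences was not tested.

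UCHL1 went the opposite way for the breed of the sow. The brighter probe was 1.25-fold lower in fetuses of MS sows, at -0.32 ± 0.11 (SE, log2; limma adjusted p = 0.0303), and within slides it was lower on 8 of 8 (-0.88 to -0.08). The second probe gave -0.18 ± 0.10 (adjusted p = 0.234), so the call depends on the probe. Leaving out MSLW fetus 578 or MS fetus 409, both of day 110, also ended it (-0.30 in each case), as did the median of the array (-0.20, adjusted p = 0.237) and the mean of both probes (-0.21, adjusted p = 0.189). For the sow, 2 of 6 genes were called where the background was 15.9% of probes. For sow breed at each day it was 1 of 6 genes, with a background of 5.7% at day 90 and 9.97% at day 110. For the sire it was 1 of 6 against 6.97%, and for MS against LW it was 1 of 6 at day 110 against 5.01% and 0 of 6 at day 90 against 3.59%. At an unadjusted p under 0.05 in limma, 2 genes passed for MS against LW at day 90, S100B and UCHL1, beside 7275 of all 40515 probes. With 6 genes, 1 call is a share of the same order as the background in several of these comparisons, so the counts are no result about the members as a set.

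RET, GFRA1, ELAVL4 and SOX10 were not called for either parent. Their differences by sow were -0.09 ± 0.17, -0.12 ± 0.11, -0.25 ± 0.17 and 0.21 ± 0.12 (SE, log2). By sire they were 0.23 ± 0.17, -0.14 ± 0.11, -0.02 ± 0.17 and 0.12 ± 0.12.

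**Figure D3:**
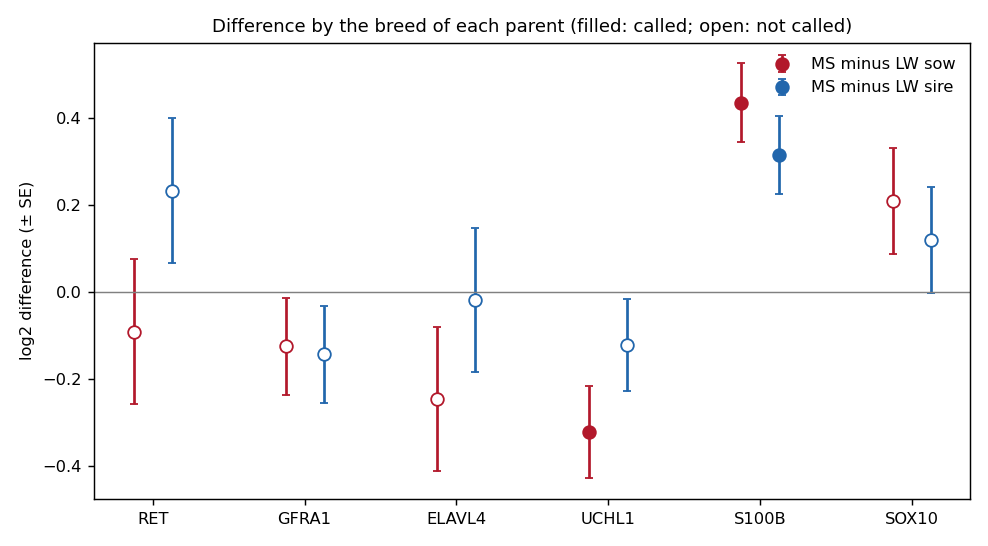
Difference between fetuses of MS and LW sows and of MS and LW sires (vertical axis, log2 with its SE) for each gene (horizontal axis), over both days. Filled points were called at an adjusted p under 0.05, which held for S100B with both parents (0.44 and 0.32) and for UCHL1 with the sow (-0.32).

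Fetuses of the same group that were high in 1 neuronal member tended to be high in the others. Correlations were taken between deviations from the 8 group means, with p-values from 100000 permutations within groups, two-sided, adjusted over the 15 pairs of members, and 1e-05 is the smallest p they can give. GFRA1 and UCHL1 followed each other most closely (r = 0.93, rho = 0.91, adjusted p = 3e-05 and 3.75e-05), and r was 0.90 without the 2 fetuses farthest from the median of GFRA1. RET and ELAVL4 came next (r = 0.81, rho = 0.81, adjusted p = 3e-05 and 3.75e-05, and r = 0.81 without the 2 farthest). Both pairs held within days, with r of 0.82 and 0.70 at day 90 and 0.95 and 0.86 at day 110, and on 8 of 8 slides.

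Between these pairs, the correlation was close at day 110 and weak at day 90. RET and UCHL1 had r = 0.66 and rho = 0.63 (adjusted p = 3e-05 and 3.75e-05), made up of 0.07 at day 90 and 0.89 at day 110. RET and GFRA1 had r = 0.74 and rho = 0.71 (adjusted p = 3e-05 and 3.75e-05), with 0.24 and 0.91. ELAVL4 had r = 0.64 and rho = 0.56 with both GFRA1 and UCHL1 (adjusted p = 6.43e-05 and 2.25e-04), with 0.13 and 0.08 at day 90 against 0.73 and 0.77 at day 110. Within slides these 4 pairs were positive on 8, 8, 7 and 8 of 8 slides, in the order RET with UCHL1, RET with GFRA1, ELAVL4 with GFRA1 and ELAVL4 with UCHL1. Without the 2 fetuses farthest from the median, r was 0.64, 0.71, 0.54 and 0.54. The difference between days was not tested, and the SDs of these genes were also wider at day 110, except that of RET in LW.

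S100B went with UCHL1 (r = 0.62, rho = 0.56, adjusted p = 3e-05 and 1.50e-04) and GFRA1 (r = 0.56, rho = 0.53, adjusted p = 7.50e-05 and 2.25e-04) and not detectably with SOX10 (r = 0.14, rho = 0.08, adjusted p = 0.324 and 0.541). Negative correlations were seen between SOX10 and ELAVL4 (r = -0.41, rho = -0.48, adjusted p = 0.00317 and 3.83e-04) and between SOX10 and RET (r = -0.33, rho = -0.29, adjusted p = 0.0190 and 0.0477). S100B rose with UCHL1 on 8 and with GFRA1 on 7 of 8 slides, and r was 0.58 and 0.51 without the 2 farthest fetuses. The correlation of SOX10 with ELAVL4 was negative on 7 of 8 slides (r from -0.44 to 0.04) and that with RET on 6 (-0.79 to 0.44), and r was -0.46 and -0.30 without them. SOX10 itself differed between slides, whose mean levels ran from 1.19 to 2.28, and its mean deviation from the group means was -0.51 on the lowest slide and 0.60 on the highest, while that of S100B was -0.11 to 0.12. With the slide removed as well as the group, an alternative chosen after seeing the data and given with no test, r was -0.25 for SOX10 with ELAVL4 and -0.36 with RET. S100B and SOX10 then had r = 0.54 and rho = 0.47, so the weak correlation of the glial members given above depends on the slides. The other pairs named above kept r of 0.58 to 0.91. In all, 10 of the 15 pairs passed an adjusted p of 0.05 by r. Across arrays, SOX10 fell with the share of spots well above background (r = -0.32, rho = -0.33, adjusted p = 0.0301 and 0.0142 over 33 relations) and ELAVL4 rose with it (r = 0.31, rho = 0.34, adjusted p = 0.0201 and 0.0164). Without the 2 farthest arrays r was -0.25 and 0.22, and these signs held on 5 of 8 slides for each gene. The part of this share and of the slides in the correlation of SOX10 with ELAVL4 was not tested.

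**Figure D4:**
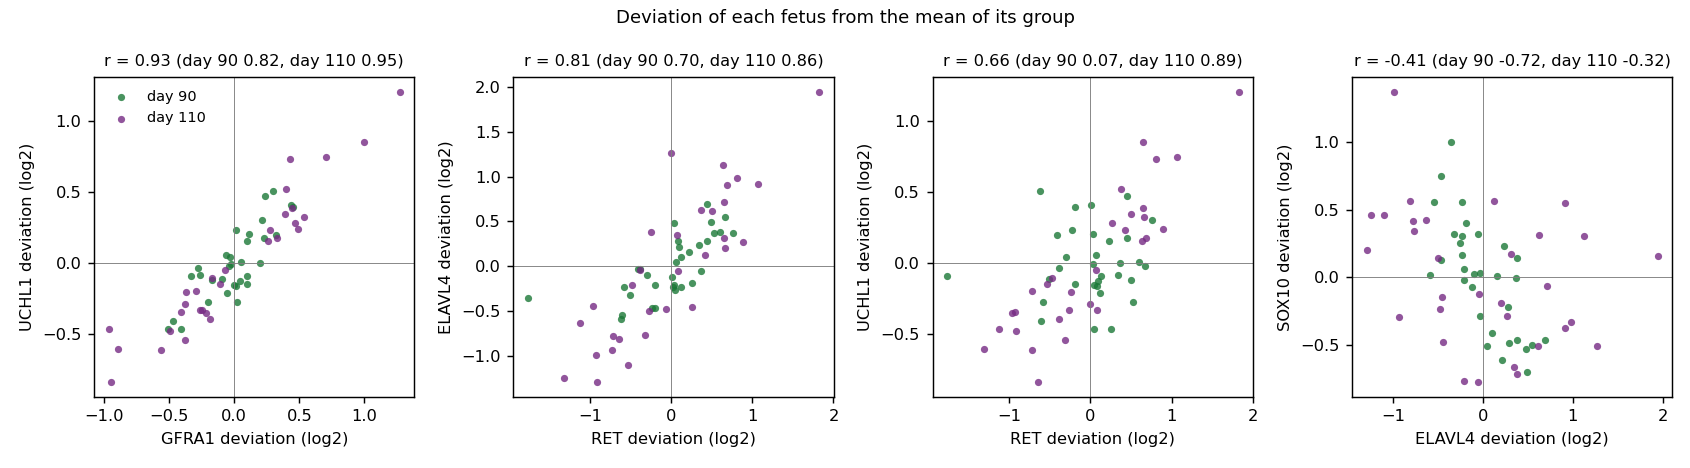
Deviation of each fetus from the mean of its group (both axes, log2) for 4 pairs of genes, coloured by day. GFRA1 with UCHL1 and RET with ELAVL4 rise together at both days, RET with UCHL1 has an r of 0.07 at day 90 and 0.89 at day 110, a difference that was not tested, and SOX10 with ELAVL4 has an r of -0.41, which was -0.25 with the slide removed.

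The labels of the members were set against the fuller lists of markers. RET, GFRA1, ELAVL4 and UCHL1 had r of 0.88, 0.84, 0.88 and 0.82 with the mean of 23 pan-neuronal genes across fetuses, and rho of 0.91, 0.76, 0.86 and 0.73 (adjusted p = 1.83e-05 for each r and 2.36e-05 for each rho over the same 33 relations), positive on 8 of 8 slides. Without the 2 farthest fetuses r was 0.86, 0.78, 0.85 and 0.75. With the mean of 14 glial genes S100B had r = 0.37 and rho = 0.30 (adjusted p = 0.00962 and 0.0418, positive on 6 of 8 slides, r = 0.29 without the 2 farthest), and SOX10 had r = -0.13 and rho = -0.13 (adjusted p = 0.366 and 0.380). The glial r of S100B was -0.28 at day 90 and 0.60 at day 110. S100B had r = 0.35 and rho = 0.24 with the pan-neuronal mean (adjusted p = 0.0201 and 0.115), so the marker lists do not set it apart as glial in these samples. The same glial mean had r of 0.78 to 0.86 with the neuronal members. The SOX10 probes had r = 0.28 and rho = 0.26 with each other (adjusted p = 0.0538 and 0.0643, and r = 0.17 with the slide removed). The RET probes had 0.91 and 0.91 and the UCHL1 probes 0.89 and 0.86. The second SOX10 probe was well above background on only 30 of 63 arrays and the RET probes share 48 bases. These values therefore cannot decide what the brighter SOX10 probe reads. A correlation of that probe with the mean of the glial genes was not detected, while with S100B it depended on the slides. Its values are given under the name the array file carries.

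The genes whose deviations were most like those of each member, among 8470 named genes, were ranked by r. For RET they were PEG3, DNER and NTRK3 (r = 0.93, 0.93 and 0.92 over 63 fetuses), the last being the receptor of neurotrophin-3. For UCHL1 they were SULT4A1, GNG3 and the growth cone protein GAP43 (0.94, 0.93 and 0.93 over 62), for GFRA1 GNG3, DACT3 and RTN2 (0.93, 0.92 and 0.90), and for ELAVL4 CELF6, SNAP91 and the calcium channel gene CACNA1B (0.88, 0.87 and 0.87). S100B was most like RESP18, GPX8 and FBXO44 (0.80 each), and SOX10 most like PDE4A, CYP2S1 and EIF4EBP2 (0.92, 0.91 and 0.91). These are the highest of many correlations and carry no test.

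Other cell types of the wall moved with the members. Across fetuses the mean of 9 smooth muscle genes rose with RET, GFRA1, ELAVL4 and UCHL1 (r = 0.71, 0.82, 0.61 and 0.82, rho = 0.67, 0.78, 0.56 and 0.80), on 8 of 8 slides each. The mean of 8 enterocyte genes fell with them (r = -0.69, -0.75, -0.68 and -0.75, rho = -0.68, -0.63, -0.57 and -0.61), also on 8 of 8 slides. Each of these r had an adjusted p of 1.83e-05, and those of rho lay between 2.36e-05 and 1.47e-04. Without the 2 farthest fetuses r was 0.69, 0.78, 0.58 and 0.79 for smooth muscle and -0.63, -0.63, -0.59 and -0.63 for enterocytes. S100B too rose with the smooth muscle mean (r = 0.47, rho = 0.48, adjusted p = 8.16e-04 and 3.82e-04) and fell with the enterocyte mean (r = -0.44, rho = -0.38, adjusted p = 9.90e-04 and 0.00888). The first was positive on 5 of 8 slides and had r of 0.06 at day 90 and 0.66 at day 110, the second was negative on 7 of 8 slides, and without the 2 farthest fetuses r was 0.36 and -0.38. With age, 7.62% of all probes were called lower and 13.7% in either direction. Of the 9 smooth muscle genes 1 fell, ACTA2 by 0.55 ± 0.07, and the median of these genes was -0.19. Their summed signal, in units of the 75th percentile, was 514 to 913 (median 640) at day 90 and 389 to 852 (median 542) at day 110. Of the 8 enterocyte genes, the brush border enzymes ALPI (2.47 ± 0.34) and LCT (1.37 ± 0.25) rose and ANPEP fell by 0.59 ± 0.16. SI, a further such enzyme, was also called higher, but it was well above background on 6 of 32 arrays at day 90 and 18 of 31 at day 110, so that no size is given. The enterocyte sum was 227 to 456 (median 316) at day 90 and 150 to 601 (median 465) at day 110.

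Relative to the mean of the smooth muscle genes on the same array, GFRA1, UCHL1 and ELAVL4 were lower at day 110 and RET did not pass the test. This comparison too was added after the values were seen. The change was -0.60 for GFRA1 (permutation within genotypes, two-sided, adjusted over 6 genes, p = 3e-05), -0.47 for UCHL1 (adjusted p = 3e-05), -0.46 for ELAVL4 (adjusted p = 0.0030) and -0.23 for RET (adjusted p = 0.113). S100B and SOX10 changed by 0.10 and 0.15 (adjusted p = 0.301 and 0.335). The part of the enterocyte genes in the fall was not tested.

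The wider neuronal list was described next. Of 32 pan-neuronal genes 28 had a probe and 25 were tested, of which 10 fell and 1 rose, where 7.62% of all probes were called lower and 13.7% in either direction, with a median of -0.37 beside -0.02 over all probes. RTN1 fell by 0.76 ± 0.11 (SE, log2), GAP43 by 0.75 ± 0.11 and the microtubule protein MAPT by 0.70 ± 0.16. Only NCAM1 was called for the sow, lower with an MS sow (-0.66, adjusted p = 0.0102), and none for the sire.

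Genes that act with RET were counted next. Of 7 tested genes of RET and GDNF signalling, 1 was called for age, the related co-receptor GFRA2, which fell by 0.59 ± 0.15 and is named because it is the sole call, where 13.7% of all probes were called. The median was 0.06. The adaptor SHC1 was the 1 gene called for the sow and also for the sire (adjusted p = 0.0142 and 0.00386), beside 15.9% and 6.97% of all probes, so that 1 of 7 is no more than the background for the sow. GDNF itself was not among the tested genes.

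Among 10 tested endothelin and neural crest precursor genes, 2 fell and none rose, with a median of -0.08, and this count is of the same order as the 13.7% of all probes called in either direction (7.62% lower). The low-affinity neurotrophin receptor NGFR fell by 1.11 ± 0.16 and the neurotrophin NTF3 by 0.68 ± 0.08. The endothelin-converting enzyme ECE1 was at 0.47 ± 0.08, under the 0.5 log2 units required. ERBB3, a neuregulin receptor, was the 1 gene called for the sow, at 0.21 (adjusted p = 0.0420).

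Transmitter genes were called in both directions, where 13.7% of all probes were called for age and 15.9% for the sow. Of 10 tested, TAC3, a tachykinin gene, rose by 1.29 ± 0.14, while ADCYAP1, the gene of the peptide PACAP, fell and CALCB, a calcitonin gene-related peptide, fell by 0.56 ± 0.11. The fitted fall of ADCYAP1 was 1.07 ± 0.25, but its probe was well above background on 28 of 32 arrays at day 90 and 18 of 31 at day 110, so its level at day 110 is near background and the size is uncertain. The median was -0.14. NPY was at -0.49 ± 0.19 (adjusted p = 0.0292) and was lower with an MS sow (adjusted p = 0.0150), as was TAC3 (adjusted p = 0.0276), and CALB1 was higher (0.64, adjusted p = 0.0416). Several of these peptides are also made by endocrine cells of the mucosa, whose 8 tested markers had 0 age calls in limma, 2 of them at an unadjusted p under 0.05, and a median of -0.06 that was 0.00072 with the authors' table. Their summed signal was 44.0 to 172 (median 89.8) at day 90 and 69.3 to 249 (median 123) at day 110, and their part in the transmitter genes was not tested.

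Among 7 tested receptors of the members' ligands and targets of nitric oxide, 0 were called for age, for the sow or for the sire, with an age median of -0.30 that was -0.08 with both the authors' table and normexp. At an unadjusted p under 0.05 in limma 4, 2 and 1 passed, beside 46.7%, 29.8% and 18.9% of all probes. The soluble guanylate cyclase subunits GUCY1A3 (-0.49 ± 0.10) and GUCY1B3 (-0.41 ± 0.10), which nitric oxide activates in smooth muscle, had adjusted p of 4.56e-05 and 4.13e-04 but differed by less than 0.5 log2 units.

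Glial genes beyond the members were counted last. Of 16 tested, 3 fell and none rose, few calls to set beside the 13.7% of all probes called in either direction (7.62% lower). The median was -0.19, and it was -0.10 with the authors' table and -0.06 with normexp. At an unadjusted p under 0.05 in limma 13 of the 16 passed, beside 46.7% of all probes. The summed signal of the list was 21.8 to 36.3 (median 25.2) at day 90 and 13.2 to 29.5 (median 18.9) at day 110. FABP7, a fatty acid binding protein of immature glia, fell by 1.5 ± 0.14 (well above background on 32 of 32 arrays at day 90 and 24 of 31 at day 110), the progenitor factor SOX2 by 0.73 ± 0.10 and NCAM1, which is also on the neuronal list, by 0.67 ± 0.19. ERBB3, which is on this list too, was higher with an MS sow. SOX2 is also made by other cells of the gut.

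**Figure D5:**
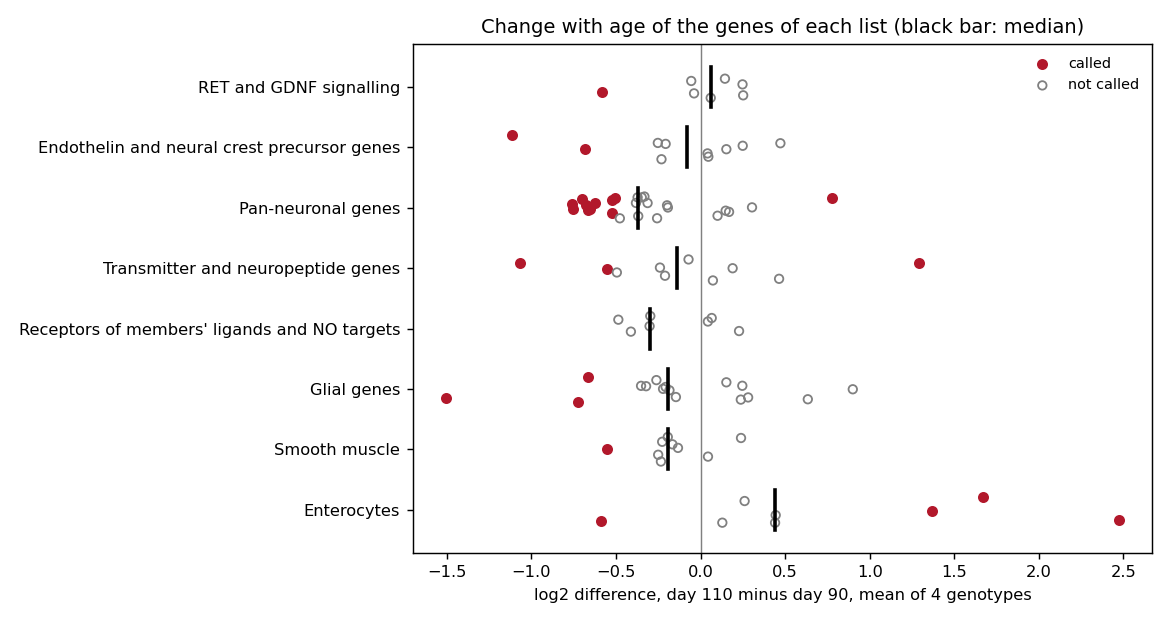
Change with age over the 4 genotypes (horizontal axis, log2 difference of day 110 minus day 90) of each tested gene of the lists (rows), with called genes in red and the median as a black bar. The pan-neuronal list lies mostly below 0, at a median of -0.37, and the enterocyte list mostly above it.

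The remaining marker lists were counted beside the 13.7% of all probes called for age in either direction (7.62% lower). For age, 2 of 6 fibroblast genes fell (median -0.43), 2 of 2 red blood cell genes fell (median -1.74), 1 of 6 leukocyte genes rose (median -0.14, but 0.11 with the authors' table), and 0 of 2 genes of interstitial cells of Cajal (median -0.26), 0 of 5 of endothelium (-0.13), 0 of 2 of skeletal muscle (-0.26) and 0 of 3 of adipocytes (0.13) were called in limma. At an unadjusted p under 0.05 the last 4 lists had 1, 4, 1 and 1 genes. The other list medians kept their sign under the authors' table and the 3 other scalings. KIT, which marks interstitial cells of Cajal, was lower with an MS sow (-0.58), as was the endothelial gene KDR (-0.52). The leukocyte gene CD163 was higher with an MS sow (0.48). With an MS sire, KDR (-0.47) and the fibroblast gene LUM (-0.36) were lower and the red blood cell gene AHSP was higher (0.96). Of all probes, 15.9% were called for the sow and 6.97% for the sire. The part of these genes in the S100B differences was not tested. The fibroblast and red blood cell counts were above the share of all probes, on few genes, and the fibroblast median of -0.43 stands beside -0.37 for the pan-neuronal list. Fibroblast sums were 105 to 242 (median 173) at day 90 and 63.2 to 307 (median 108) at day 110. The part of the fibroblast genes in the fall of the neuronal members was not tested. The defining markers of smooth muscle and of enterocytes were present: 8 of the 9 tested smooth muscle genes and 6 of the 8 enterocyte genes were well above background on all 63 arrays, and the exception was SI, on 24 arrays, besides SYNPO2 on 60 and ALPI on 62.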

How the data were processed

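The authors deposited Agilent Feature Extraction output (version 10.10.1.1 per the labels' processing notes) of 63 1-colour porcine arrays on 8 slides, holding linear intensity per spot, raw and background-corrected, and quality flags. The authors also deposited a log2 matrix of 39446 probes, which follows the log2 median signal of the same arrays (r of 0.993 or more per array) and has near-equal column medians of 8.61. The genome build is not given in the sources used here. 0 columns of sample values were left unused.

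Here the log2 of the background-corrected intensity minus the 75th percentile of the array was taken, control spots (1319 of 61625) were left out, outlier spots were set to missing, and spots of a probe were averaged. No spot was saturated, and 51.2 to 87.6% of spots (median 66.7%) were well above background. The 8 group means were fitted over 40515 tested probes with limma 3.58.1 in R 4.3.3 (with version 1.17.8 of its package data.table), and p-values were adjusted over all of them by the Benjamini-Hochberg method, two-sided. The thresholds were an adjusted p no higher than 0.01 and 0.5 log2 units or more for age and for MS against LW, 0.01 for MS against LW by age, under 0.01 for the F test, and under 0.05 for the sow and sire terms. 95% intervals use 55 residual degrees of freedom. Other steps used numpy 2.4.6, pandas 2.3.3, scipy 1.17.1 and matplotlib 3.10.9. The steps were tested on simulated data. The number of arrays limits the precision.

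The members and the gene lists were chosen with earlier results of these data known. Members and list genes were represented by their brightest tested probe. List genes were named where the F test called them and their change with age was among the 3 largest of the list in each direction, and the 3 genes of highest r were named for likeness. Exceptions, named after their values were seen, are GFRA2, ERBB3, CALB1, SYNPO2, PLIN1 and KRT8. The ratios to glial and smooth muscle genes and the correlations with arrays and list means were added after seeing the data. Gene names are those of the array files or unique RefSeq synonyms (Sscrofa11.1), which named 22464 of 60305 probes. The authors' random sow effect could not be fitted without the sow of each fetus. Alternatives were the deposited log2 values, normexp background correction together with quantile normalization, quantile and median scaling alone, 2 filters on dim probes, the slide as a block, array weights, leaving out LW fetuses 484 and 469, gene means and, chosen after seeing the data, leaving out each fetus and, for correlations, removing the slide. Some genes of the lists that the rule names are not reported here.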

Additional observations from a re-analysis of the deposited data

Results flagged for a closer look

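RET in 1 LW fetus of day 90, fetus 484, lay at -2.77, far below the nearest of the other 8 fetuses of its group at -1.24. The gap was 0.631 of the range of the group, above Dixon's 95% critical value for 9 samples. Of 48 combinations of gene and group this was the only one, where chance would mark about 1 in 20. The same fetus had the lowest GFRA1 (1.60) and the highest SOX10 (2.50) of its group. It is 1 of the 2 LW fetuses left out in an alternative fit, in which RET changed relative to S100B by -0.37 and relative to SOX10 by -0.46 with age, with adjusted p of 0.0347 and 0.0453.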

How the results depend on the processing

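GFRA1 and UCHL1 over the genotypes and UCHL1 in LWMS were called under all 10 alternatives, as was S100B for the sow and for MS against LW at day 110. The number of the 6 genes called for age over the genotypes was 2 to 4 under these alternatives. ELAVL4 fell below 0.5 log2 units with the authors' table (-0.41) and normexp with quantile normalization, here called normexp (-0.31). For age in MSLW the number was 3 with array weights, which brought in ELAVL4, 1 with normexp, quantile scaling or no filter on dim probes and 0 with the median of the array, which also gave 1 for age in LWMS, 1 for the sow, 0 for the sow at day 90 and 0 for the sire. Normexp and quantile scaling gave 0 for the sow at each day, and the authors' table gave 0 for the sow at day 110. Array weights gave 5 in the F test, 2 for age in MS, 4 for the sow, 2 at day 90 and 3 at day 110, and for MS against LW 2 at day 90 and 4 at day 110. They brought in RET for age (-0.58, adjusted p = 2.14e-04) and GFRA1 (-0.33) and ELAVL4 (-0.39) for the sow. For MS against LW at day 90 the number was 1 without fetuses 484 and 469 and 1 with gene means, which gave 1 for the sow. Signs turned for SOX10 with age (0.030 with the median of the array, 0.0215 without fetuses 484 and 469), for S100B with age (0.0025 with array weights) and for RET with the sow (0.0172 with the median of the array). The cause of these changes was not tested.

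Leaving out each of the 63 fetuses in turn gave 3 genes for age over the genotypes throughout, 2 for LWMS, 0 for LW, 1 for the sire, 1 for MS against LW at day 110 and 0 for each breed by age term. It gave 0 to 2 for MSLW, 0 to 1 for MS (without fetus 632), 1 to 2 for the sow, 0 to 1 for the sow at each day and for MS against LW at day 90, and 3 to 4 in the F test. The pairs of members correlated across fetuses numbered 8 to 10.

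The median of the array moved the median sow difference of all probes from 0.02 to 0.13 and the share of sow calls that were higher from 44.4% to 74.3%, and that of sire calls from 44.5% to 27.5%, so breed calls are relative to the scale. Litters and the single probe of S100B limit the precision. The dim second probe of SOX10, well above background on 30 of 63 arrays, limits the check of its brighter probe. The single ELAVL4 probe was well above background on 61. A block by scan date was not run because all arrays share 1 scan date. No paired analysis was possible because each fetus number occurs in 1 group only.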
